A study of Homo sapiens with 12 samples.

Results

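The 10 genes described here are genes of the retinoid pathway, followed in 786-O cells: the retinoic acid carrier CRABP2, the enzymes DHRS9, DHRS3, ALDH1A1, ALDH1A3 and CYP26B1, and the receptors RARA, RARB, RARG and RXRA. They were selected by gene symbol for these functions, out of 17085 genes in the count table, at a time when earlier results of the same libraries were known. In those results CRABP2 had been named among the genes that fell most in the everolimus group, and DHRS9 among those that fell most in the combination group. The log2 fold changes of the 10 genes are therefore given as a description, with standard errors and 95% intervals and no printed p-value. Whether a gene was called at an adjusted p under 0.05 is stated as part of this description. For genes chosen in this way such a call is not an independent test. Of the 10 genes, 8 passed the filter on low counts, as did 12841 of all 17085 genes, and RARB and CYP26B1 did not.

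Retinol is oxidized in cells to retinal and then to retinoic acid, which binds nuclear receptors of the RAR family that act as dimers with RXR on the DNA of target genes. Carriers such as CRABP2 bring retinoic acid to the receptors, dehydrogenases set how much of it is made, and enzymes of the CYP26 family break it down. In kidney epithelium this pathway is known for its part in the development of the nephron, and ALDH1A1 is also widely used as a marker of progenitor-like tumour cells.

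Libraries of mRNA, for which the methods and the sample records name different kits, were sequenced from 786-O, a human clear cell renal carcinoma line that lacks functional VHL. The cells, recorded as wild type, were treated for 24 h with DMSO as the vehicle control, with the mTOR inhibitor everolimus, with the quinoline compound SGI-1027 at 1.5 µM, which inhibits DNA methyltransferases, or with 1.5 µM SGI-1027 plus 5 µM everolimus, the combination group. The everolimus group received 5 µM according to its treatment label and the methods, whereas the protocol text of the records gives 10 µM for everolimus alone. Each of the 4 groups held 3 libraries of 37046231 to 41516976 counts. Nothing says whether the 3 libraries came from separate cultures, so errors and p-values measure the spread between libraries, which may be technical.

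The libraries were checked against markers of the line. All 9 markers of a renal carcinoma line had counts in every group, among them PAX8, a transcription factor of the renal lineage, at 77.6 to 119 FPKM (counts scaled by transcript length and by library total), KRT8 at 467 to 619 FPKM and VIM at 2659 to 3466 FPKM, while CA9 stayed between 0.0340 and 0.536 FPKM. The summed level of 4 leukocyte markers was at most 0.273 FPKM in any library, with PTPRC at 0 or 1 count, and that of 3 endothelial markers at most 0.0576 FPKM. Of the 3 hepatocyte markers, ALB had at most 5 counts and APOA1 at most 1, but SERPINA1 stood at 64.9 to 90.1 FPKM. DMSO replicate 1 and SGI-1027 replicate 3 stood apart from the other libraries of their groups, with a chi-square per gene of 10.1 and 12.9 and of 16.4 and 16.1 against them, where the other pairs of replicates gave 3.04 to 5.46. In RNA from a whole culture, fewer cells that express a gene and less RNA per cell cannot be told apart.

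The starting point was a line with a clear order among the 10 genes. On the FPKM scale, which is per length and so lets genes be compared, ALDH1A1 had the highest level in the DMSO group at 28.8 ± 0.106 (SD, n = 3). It was followed by RXRA at 13.9 ± 0.524, RARG at 7.95 ± 0.246, ALDH1A3 at 5.84 ± 0.571, RARA at 4.93 ± 0.406 and CRABP2 at 4.89 ± 0.496 FPKM. DHRS3 and DHRS9 were lower, at 3.04 ± 0.372 and 1.03 ± 0.0477 FPKM, and CYP26B1 and RARB were close to nothing at 0.0269 ± 0.00154 and 0.0213 ± 0.00122 FPKM. The levels of RARA and CRABP2 overlapped, as did those of ALDH1A3 and RARA, whereas the other neighbours down to DHRS9 did not overlap. In the combination group the order had turned, with RXRA first at 11.3 ± 0.227 FPKM, then ALDH1A3 at 10.3 ± 0.499, RARG at 9.09 ± 0.178, and ALDH1A1 only after these at 7.0 ± 1.06 FPKM.

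Promoter sequences of the genes that carry these patterns are shown from RefSeq (build GRCh38.p14), in windows of 300 bases that run from 250 bases before to 50 bases after an annotated gene start. All 10 genes matched, with 21 windows between them. RARB is the textbook target of retinoic acid, and its window at chr3:25428013-25428312 (plus strand) is shown for its receptor motif, with CRABP2 at chr1:156705735-156706034 (minus strand) beside it. Capitals mark receptor half-sites, searched on both strands as the consensus AGGTCA, the variant GGTTCA, the variant AGTTCA or the variant GGGTCA.
RARB: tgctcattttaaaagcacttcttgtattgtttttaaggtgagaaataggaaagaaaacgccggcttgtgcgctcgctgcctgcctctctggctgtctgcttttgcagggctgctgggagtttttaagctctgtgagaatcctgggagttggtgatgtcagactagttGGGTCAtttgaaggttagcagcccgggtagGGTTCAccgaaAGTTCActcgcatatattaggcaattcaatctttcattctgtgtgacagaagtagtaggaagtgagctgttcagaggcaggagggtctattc
CRABP2: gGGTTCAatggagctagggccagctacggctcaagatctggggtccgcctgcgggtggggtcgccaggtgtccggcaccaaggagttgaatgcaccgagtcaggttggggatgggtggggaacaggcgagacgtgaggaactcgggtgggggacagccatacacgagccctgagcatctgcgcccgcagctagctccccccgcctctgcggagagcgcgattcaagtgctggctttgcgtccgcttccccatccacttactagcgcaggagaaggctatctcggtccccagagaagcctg
The RARB window held 3 half-sites, and a pair of them formed the direct repeat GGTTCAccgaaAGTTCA with a spacer of 5 bases, from 53 to 37 bases before the start. A direct repeat of these half-sites with that spacer occurred in 0.0883% of all 35116 promoter windows, and RARB was the only member with it. Neither a spacer of 1 base (0.131% of all windows) nor of 2 bases (0.0399%) was found in any of the 21 windows. A half-site alone was frequent, in 38.6% of all windows, and the CRABP2 window held 1, close to its far end.

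The pair of retinaldehyde dehydrogenases is shown for another contrast, with every CpG, the site that DNA methyltransferases act on, in capitals, and DHRS9 is added as the gene with the largest decrease. The windows lie at chr9:72953004-72953303 (minus strand) for ALDH1A1, chr15:100879581-100879880 (plus strand) for ALDH1A3 and chr2:169066827-169067126 (plus strand) for DHRS9.
ALDH1A1: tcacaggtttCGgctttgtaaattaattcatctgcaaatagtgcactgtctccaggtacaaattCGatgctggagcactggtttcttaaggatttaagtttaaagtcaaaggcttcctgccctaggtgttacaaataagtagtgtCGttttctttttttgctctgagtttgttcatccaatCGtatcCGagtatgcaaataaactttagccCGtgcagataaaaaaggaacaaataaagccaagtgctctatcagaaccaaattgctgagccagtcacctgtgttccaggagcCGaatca
ALDH1A3: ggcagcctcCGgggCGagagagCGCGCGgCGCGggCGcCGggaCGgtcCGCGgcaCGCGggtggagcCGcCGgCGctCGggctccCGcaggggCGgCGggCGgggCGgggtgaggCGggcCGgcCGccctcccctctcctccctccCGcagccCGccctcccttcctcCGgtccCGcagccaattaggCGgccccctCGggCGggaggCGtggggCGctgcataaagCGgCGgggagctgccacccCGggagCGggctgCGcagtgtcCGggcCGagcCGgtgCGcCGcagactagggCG
DHRS9: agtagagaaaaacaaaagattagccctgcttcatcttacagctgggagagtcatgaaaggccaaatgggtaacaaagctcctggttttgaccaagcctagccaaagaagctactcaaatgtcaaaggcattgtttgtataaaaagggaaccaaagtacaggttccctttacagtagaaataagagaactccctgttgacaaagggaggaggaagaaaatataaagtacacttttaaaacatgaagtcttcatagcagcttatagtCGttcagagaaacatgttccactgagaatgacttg
The ALDH1A1 window held 7 CpG at 40.3% G and C, against 46 CpG at 81.7% for ALDH1A3, where the median of all windows was 14 CpG and 58.7%. The DHRS9 window shown had 1 CpG, and the other windows of DHRS9 had 0, 2 and 4. CRABP2 had 20. DNA methylation was not measured in these samples, so the windows describe the sequence only.

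CRABP2, the carrier that passes retinoic acid to RAR, fell in all 3 treated groups and to similar levels. Its normalized CPM (counts scaled to library size) were 5.69, 4.78 and 4.97 in the DMSO libraries, 1.30, 1.10 and 1.57 with everolimus, 1.84, 1.73 and 1.44 with SGI-1027, and 1.12, 1.13 and 1.16 with both drugs. Every treated library lay far below every DMSO library, and the everolimus libraries overlapped with those of both other treated groups. The log2 fold change of CRABP2 was -1.96 (standard error 0.17) for everolimus alone, -1.62 (0.17) for SGI-1027 alone and -2.18 (0.17) for both drugs, or 3.90-fold, 3.08-fold and 4.52-fold lower than DMSO. It was the 7th lowest of 12841 log2 fold changes in the everolimus group, a fall known when CRABP2 was chosen, and the 51st lowest in the combination group. The combination differed from everolimus alone by -0.22 on the log2 scale, with a 95% interval from -0.63 to 0.20 that includes no difference. As the records give 5 or 10 µM for everolimus alone and 5 µM for the combination, all comparisons of these groups may also hold a difference in dose. Against SGI-1027 alone the combination was lower by -0.56 (95% interval -0.96 to -0.15). This difference lost its call in 10 of the alternatives that kept the adjusted p of 0.05 as threshold. Among them were the removal of SGI-1027 replicate 1 (-0.48) or 2 (-0.53) and of combination replicate 1 (-0.54), 2 (-0.55) or 3 (-0.57).

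**Figure D1:**
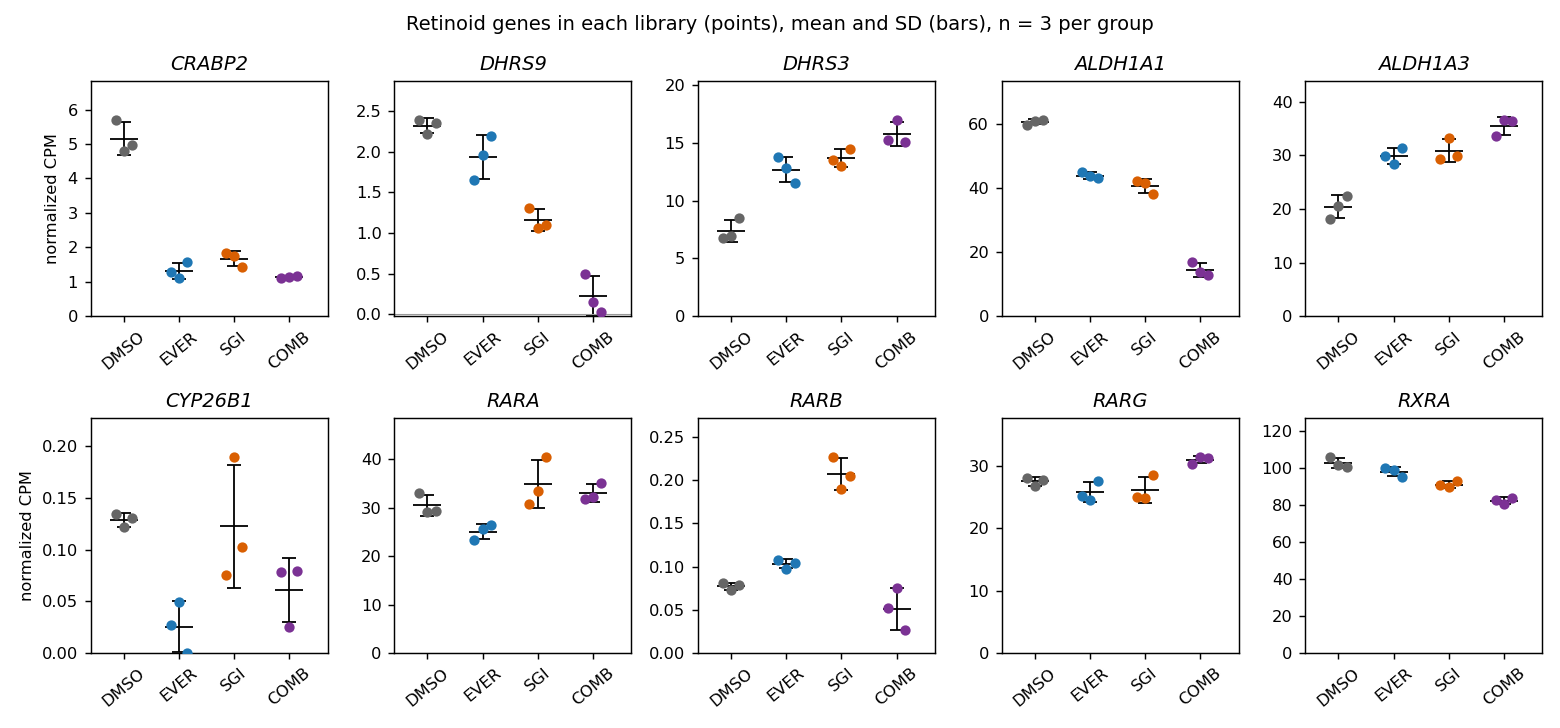
Normalized CPM (vertical axes, starting at 0 except for DHRS9, where the SD bar of the combination group reaches below 0) of the 10 retinoid genes in each library, as points, with the mean and SD of 3 libraries as bars; EVER is everolimus, SGI is SGI-1027 and COMB the combination. CRABP2 drops in all treated groups, whereas ALDH1A1 and DHRS9 drop furthest in the combination group (14.5 against 60.7 and 0.224 against 2.32 mean CPM with DMSO), and DHRS3 and ALDH1A3 stand higher in every treated library.

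Among the enzymes that interconvert retinol and retinal, DHRS9 and DHRS3 moved apart. DHRS9, a short-chain dehydrogenase that oxidizes retinol to retinal, had 89, 91 and 90 counts in the DMSO libraries, 61, 80 and 84 with everolimus, 52, 39 and 43 with SGI-1027, and 19, 6 and 1 with both drugs. Scaled to library size, the groups lay in that order without overlap, although the upper everolimus libraries came close to DMSO, and the combination libraries differed widely among themselves. The log2 fold change was -0.26 (standard error 0.29, not called) for everolimus alone, -1.00 (0.30) for SGI-1027 alone and -3.35 (0.39) for both drugs. The last was the 7th lowest of all tested genes there, a fall known when DHRS9 was chosen. The combination value rested on few counts: it was -4.64 without combination replicate 1 and -2.84 without combination replicate 3. The combination was also lower than everolimus alone by -3.09 (95% interval -3.93 to -2.25) and than SGI-1027 alone by -2.36 (-3.25 to -1.46), and these became -4.38 and -3.64 without combination replicate 1, and -2.58 and -1.84 without combination replicate 3.

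DHRS3, which reduces retinal back to retinol, went the other way. The DMSO libraries had 6.76, 6.92 and 8.48 CPM, against 13.8, 12.8 and 11.5 with everolimus, 13.5, 13.0 and 14.5 with SGI-1027, and 15.3, 17.0 and 15.1 with both drugs. All treated libraries were above all DMSO libraries, the single-drug groups overlapped with each other, and the combination lay above both. The log2 fold changes were 0.78 (standard error 0.10), 0.89 (0.10) and 1.10 (0.10). The combination exceeded everolimus alone by 0.31 (95% interval 0.12 to 0.50), which was no longer called without everolimus replicate 3 (0.25) or combination replicate 2 (0.26), and exceeded SGI-1027 alone by 0.21 (0.02 to 0.40), which was not called.

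ALDH1A1 and ALDH1A3, the enzymes that oxidize retinal to retinoic acid, changed in opposite directions. ALDH1A1 had 59.8, 61.0 and 61.2 CPM in the DMSO libraries, 45.0, 43.7 and 43.0 with everolimus, 42.2, 41.7 and 38.1 with SGI-1027, and 17.0, 13.7 and 12.9 with both drugs. None of the 4 groups overlapped with another, and the drop was by far the largest when the drugs were given together. The log2 fold changes were -0.47 (standard error 0.07), -0.58 (0.07) and -2.06 (0.08), so that ALDH1A1 was 1.38-fold, 1.49-fold and 4.17-fold lower. The combination was lower than everolimus alone by -1.59 (95% interval -1.75 to -1.43) and than SGI-1027 alone by -1.48 (-1.64 to -1.32).

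ALDH1A3 had 18.1, 20.5 and 22.4 CPM with DMSO, 29.8, 28.4 and 31.3 with everolimus, 29.4, 33.3 and 29.8 with SGI-1027, and 33.6, 36.5 and 36.4 with both drugs. The single-drug groups overlapped, and both lay between DMSO and the combination. ALDH1A3 rose by 0.55 (standard error 0.08), 0.60 (0.07) and 0.80 (0.07) on the log2 scale. The combination exceeded everolimus alone by 0.25 (95% interval 0.10 to 0.40), a call that was lost without everolimus replicate 2 (0.22). It exceeded SGI-1027 alone by 0.21 (0.05 to 0.36), which was not called but passed in several of the alternatives, such as DESeq2 (0.21) and the removal of SGI-1027 replicate 2 (0.26) or combination replicate 1 (0.25).

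The opposite movement shifted the balance between these enzymes. On the FPKM scale ALDH1A1 made up 83.2% ± 1.33 (SD, n = 3) of the sum of ALDH1A1 and ALDH1A3 in the DMSO group, 70.9% ± 1.26 with everolimus, 68.6% ± 1.59 with SGI-1027, and 40.3% ± 4.70 with both drugs. Over single libraries the share ran from 81.9% to 84.5% with DMSO and from 36.9% to 45.7% with the combination, so that ALDH1A3 was the more abundant transcript in all combination libraries and in none of the others. Their sum decreased from 34.7 ± 0.666 FPKM with DMSO to 29.5 ± 0.344, 28.1 ± 1.50 and 17.3 ± 0.592 FPKM. The third enzyme that makes retinoic acid, ALDH1A2, had 7 counts over all 12 libraries.

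**Figure D2:**
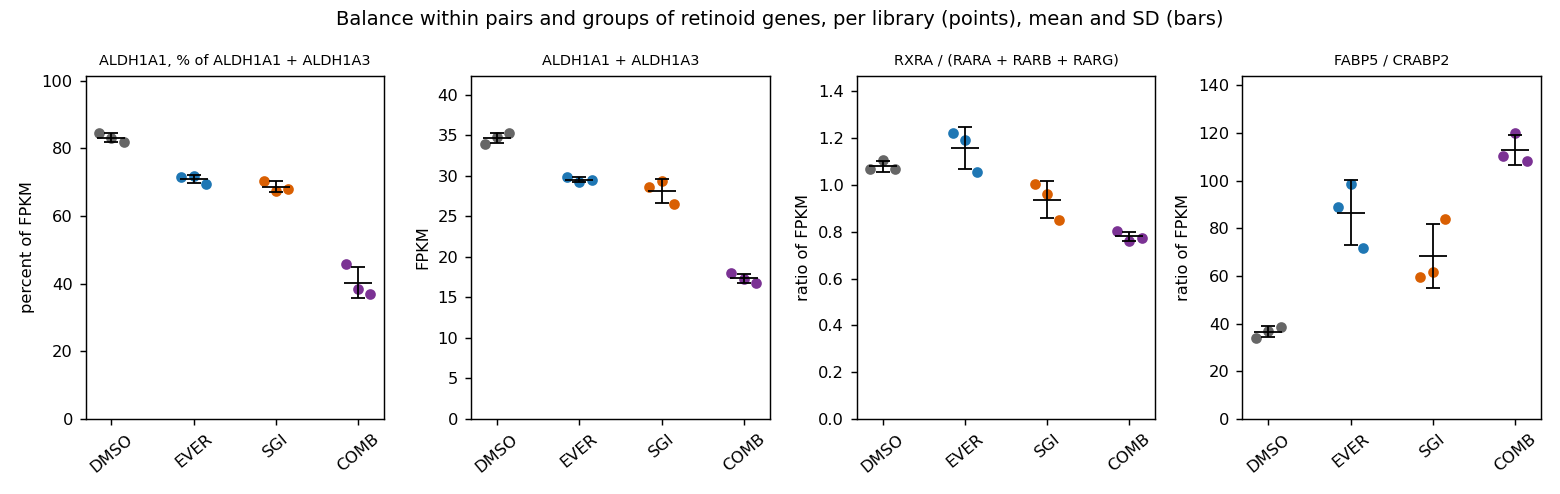
From left to right, ALDH1A1 as a percentage of ALDH1A1 plus ALDH1A3 FPKM, the sum of both in FPKM, the ratio of RXRA (without RXRB) to the summed RAR genes, and the ratio of FABP5 to CRABP2, for each library (points) with the mean and SD of 3 libraries (bars) and all axes from 0. The ALDH1A1 share falls from a mean of 83.2% with DMSO to 40.3% with the combination, while FABP5 over CRABP2 climbs from 36.5 to 113.

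The CYP26 genes were barely transcribed. CYP26B1, a cytochrome P450 that inactivates retinoic acid, had 5 counts in each DMSO library, 1, 2 and 0 with everolimus, 3, 7 and 4 with SGI-1027, and 3, 1 and 3 with both drugs. Summed over the group and scaled by library size, the ratio to DMSO was 0.201 with everolimus (3 against 15 counts, exact 95% interval 0.0372 to 0.710), 0.942 with SGI-1027 (0.421 to 2.09) and 0.468 with the combination (0.161 to 1.22). These intervals cover counting error only. When the filter on low counts was dropped, edgeR called CYP26B1 as lower with everolimus, by -2.20 on the log2 scale (standard error 0.89). That call rests on the 3 against 15 counts given above. CYP26B1 was not called with SGI-1027 or the combination in the same fit. CYP26A1 had 1 count over all 12 libraries and CYP26C1 had 0, which allows at most 3 counts, or 0.00645 CPM over the pooled libraries.

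The receptors changed little beside the enzymes. RARA had 33.1, 29.1 and 29.3 CPM with DMSO, 23.3, 25.6 and 26.5 with everolimus, 30.9, 33.5 and 40.5 with SGI-1027, and 31.9, 32.2 and 35.1 with both drugs. Only the everolimus group lay apart, below all DMSO libraries, and SGI-1027 replicate 3 was the highest library. RARA was lower with everolimus (log2 fold change -0.28, standard error 0.09), a call that was lost without everolimus replicate 1 (-0.23), and had log2 fold changes of 0.20 (0.09) and 0.12 (0.09) in the SGI-1027 and combination groups, neither of them called. The SGI-1027 value was 0.28 without SGI-1027 replicate 1 and 0.26 without DMSO replicate 1, both then called, and 0.08 without SGI-1027 replicate 3. It was also called under upper-quartile normalization (0.25) and with at least 10 counts in every library (0.21). The combination exceeded everolimus alone by 0.40 (95% interval 0.21 to 0.58). Against SGI-1027 alone it differed by -0.08 (-0.26 to 0.10), and the sign turned to 0.04 without SGI-1027 replicate 3.

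RARG, the most abundant RAR gene on the FPKM scale, stood at 28.1, 26.8 and 27.7 CPM with DMSO, 25.3, 24.5 and 27.6 with everolimus, 25.0, 24.9 and 28.5 with SGI-1027, and 30.4, 31.5 and 31.3 with both drugs. The combination libraries lay above all others, and the other groups overlapped. Its log2 fold change was -0.10 (standard error 0.06) with everolimus and -0.07 (0.06) with SGI-1027, neither called, and 0.17 (0.06) with the combination. The last call was lost without DMSO replicate 2 (0.16) or without combination replicate 2 or 3 (0.17 each). The combination exceeded everolimus alone by 0.27 (95% interval 0.14 to 0.40) and SGI-1027 alone by 0.25 (0.11 to 0.38).

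RARB, whose promoter motif is printed above and which is known as a gene silenced by promoter methylation in many carcinomas, had 3 counts in each DMSO library, 4 in each everolimus library, 9, 7 and 8 with SGI-1027, and 2, 3 and 1 with the combination. The SGI-1027 libraries were above all others, but at a level of at most 0.0628 FPKM. The ratio to DMSO of the summed counts was 1.34 with everolimus (exact 95% interval 0.517 to 3.60), 2.69 with SGI-1027 (24 against 9 counts, 1.21 to 6.58) and 0.669 with the combination (0.196 to 2.10), again for counting error only. In edgeR without the filter on low counts, the rise of RARB with SGI-1027 was 1.37 on the log2 scale (standard error 0.63). This rise was not called, and RARB was not called with everolimus or the combination either. RARB made up 0.165% ± 0.00423 (SD, n = 3) of the summed RAR level in FPKM with DMSO, 0.247% ± 0.0183 with everolimus, 0.434% ± 0.0668 with SGI-1027 and 0.0988% ± 0.0479 with both drugs.

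RXRA, an RXR partner of the RAR proteins, was lowest in the combination group. Its libraries had 106, 102 and 100.4 CPM with DMSO, 99.8, 98.8 and 95.4 with everolimus, 90.7, 89.6 and 93.0 with SGI-1027, and 82.5, 80.4 and 84.0 with both drugs. The groups did not overlap, in that order. The log2 fold change of -0.07 (standard error 0.04) with everolimus was not called, and RXRA was lower with SGI-1027 (-0.17, standard error 0.04) and with the combination (-0.32, 0.04). The combination was lower than everolimus alone by -0.25 (95% interval -0.34 to -0.17) and than SGI-1027 alone by -0.15 (-0.23 to -0.06), and the latter call was lost without combination replicate 2 (-0.13). Set against the summed RAR genes in FPKM, RXRA stood at 1.08 ± 0.0235 with DMSO, 1.16 ± 0.0893 with everolimus, 0.937 ± 0.0790 with SGI-1027 and 0.780 ± 0.0209 with both drugs. This ratio leaves out RXRB, which stood at 14.4 FPKM with DMSO and 22.2 FPKM with both drugs, so it does not describe all RXR partners.

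**Figure D3:**
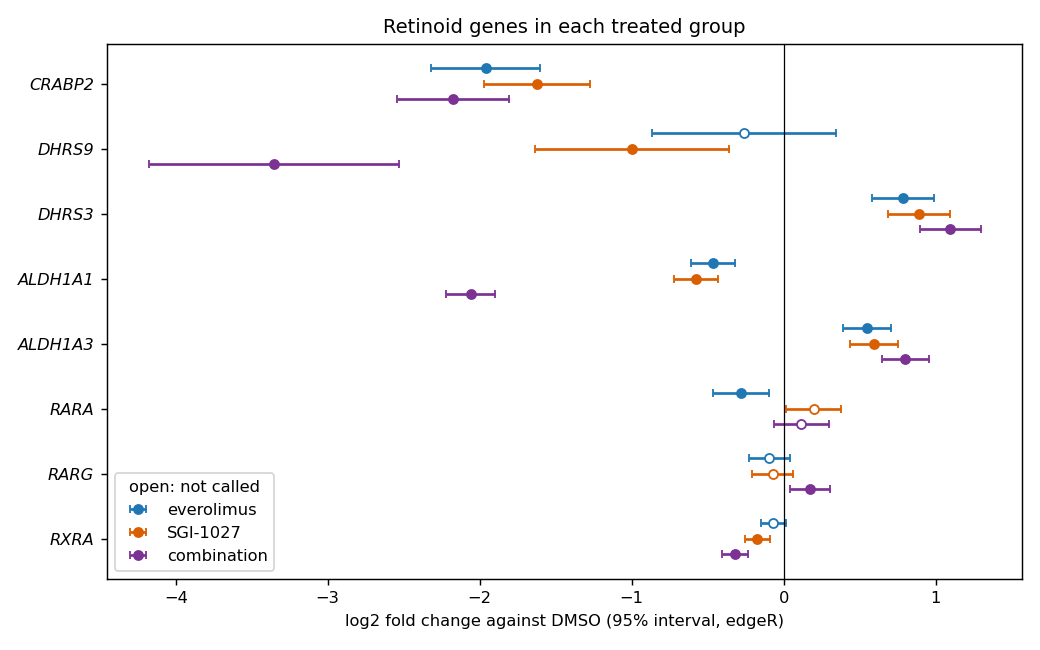
Log2 fold change against DMSO (horizontal axis) of the 8 tested retinoid genes in the everolimus, SGI-1027 and combination groups, from the edgeR fit over 12 libraries, with 95% intervals as bars and open symbols where the adjusted p was not under 0.05. CRABP2 lies at -1.96, -1.62 and -2.18, DHRS9 and ALDH1A1 lie furthest to the left in the combination group (-3.35 and -2.06), and the receptors stay within 0.32 of 0.

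A gene was called at an adjusted p under 0.05 (edgeR, quasi-likelihood F test, Benjamini-Hochberg over all 12841 tested genes). In the everolimus group 2 of the 8 tested retinoid genes were higher and 3 lower, where 27.2% of all tested genes were higher and 29.2% lower. For SGI-1027 these were 2 and 4, against 32.0% and 30.6% of all genes, and for the combination 3 and 4, against 32.8% and 33.4%. Against everolimus alone 7 of 8 were called in the combination group (39.3% of all genes), and against SGI-1027 alone 5 of 8 (19.6%). With the cut-off for differentially expressed genes (DEGs; unadjusted p under 0.05, log2 fold change of 1 or more in size), CRABP2 alone was a DEG in the everolimus group (4.79% of all genes) and in the SGI-1027 group (7.33%), and CRABP2, DHRS9, DHRS3 and ALDH1A1 were DEGs in the combination group (9.96%). The libraries did not overlap with DMSO for 7, 6 and 7 of the 8 genes in the everolimus, SGI-1027 and combination groups, against 62.9%, 63.2% and 69.2% of all tested genes. The median log2 fold change of the 8 genes was -0.18, -0.12 and -0.10 in the 3 groups, against 0.0013, 0.017 and 0.0074 over all tested genes. Since the genes were chosen with these contrasts known, nothing is read from these counts.

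The design also allows the combination to be set against the sum of the log2 changes under each drug alone, which takes the everolimus dose to be the same alone and in the combination. If everolimus alone was given at 10 µM, as the protocol text has it, a difference in dose and the effect of combining the drugs cannot be told apart. This interaction was called for 6 of the 8 genes, against 45.6% of all tested genes, and it fell into different kinds. DHRS9 and ALDH1A1 were lower in the combination than the sum, by -2.10 (95% interval -3.19 to -1.00) and -1.02 (-1.23 to -0.80). CRABP2 was above the sum by 1.41 (0.86 to 1.95), having dropped nearly as far with either drug alone. DHRS3 and ALDH1A3 rose by less than the sum, with interactions of -0.57 (-0.85 to -0.30) and -0.34 (-0.56 to -0.13). For the receptors it was 0.34 (0.15 to 0.53) for RARG, 0.20 (-0.06 to 0.45, not called) for RARA and -0.08 (-0.20 to 0.04, not called) for RXRA. The value for DHRS9 was -3.38 without combination replicate 1 and -1.58 without combination replicate 3, and RARA was called without SGI-1027 replicate 3 (0.32).

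**Figure D4:**
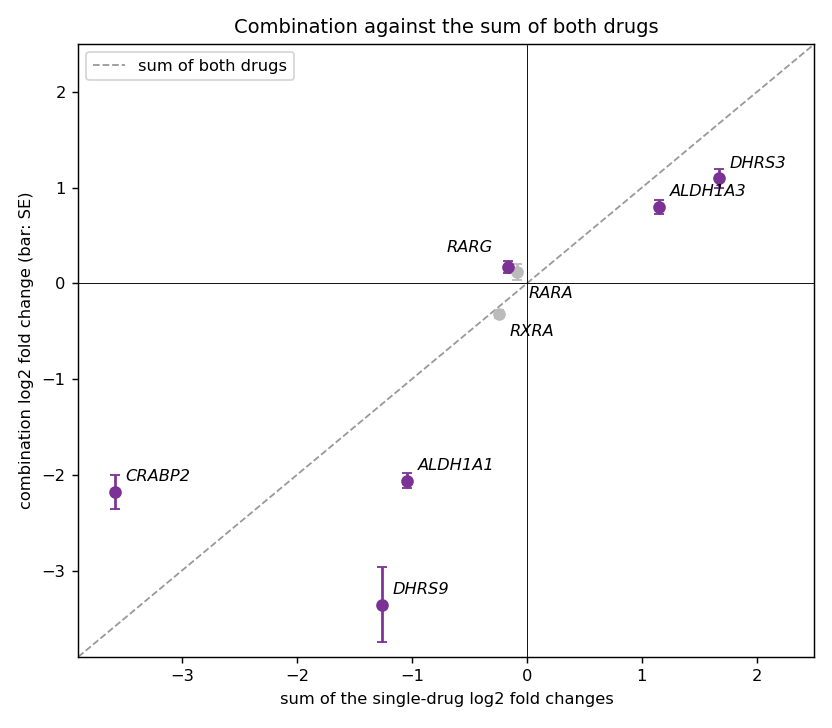
Log2 fold change of the combination against DMSO (vertical axis, bar: SE) plotted over the sum of the log2 fold changes of everolimus and SGI-1027 alone (horizontal axis) for the 8 tested retinoid genes; purple marks a called interaction, grey none, and the dashed line is equality, taking the everolimus dose to be the same alone and in the combination. DHRS9 and ALDH1A1 lie below the line by 2.10 and 1.02, and CRABP2 lies above it by 1.41.

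Other genes of the pathway were examined from lists typed by role, 77 symbols in all, of which 69 were in the table and 50 were tested. With everolimus 14 of the 50 were higher and 14 lower, with SGI-1027 alone 17 and 13, and with both drugs 15 and 18, shares of 56%, 60% and 66% that lie near those of all genes. No gene of these lists was a DEG in the everolimus group, and 3 of 50 were in each of the other groups, where the shares of all tested genes were 4.79%, 7.33% and 9.96%. Their log2 fold changes reached from -1.54 (BCO1) to 1.63 (PLAAT4) in the combination group. DHRS9, CRABP2 and ALDH1A1 lay below this range, but large falls of DHRS9 and CRABP2 were known when the retinoid genes were chosen. Nothing is read from this difference.

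Among carriers and uptake genes, FABP5 and STRA6 were the tested members, and they moved in opposite directions. FABP5, which carries retinoic acid to PPAR delta, had 121 ± 6.01 CPM (SD, n = 3) with DMSO, 72.2 ± 2.25 with everolimus, 72.3 ± 4.52 with SGI-1027 and 82.4 ± 4.13 with both drugs. Its log2 fold changes were -0.74, -0.74 and -0.55 (standard error 0.05 each, adjusted p = 4.45e-08 in the combination group). Since CRABP2 fell further, the ratio of FABP5 to CRABP2 in FPKM went from 36.5 ± 2.35 with DMSO to 86.5 ± 13.6, 68.3 ± 13.3 and 113 ± 6.29. FABP5 has processed pseudogenes with near-identical sequence, and how the counting treated them is not given in the sources used here. STRA6, the membrane receptor that takes up retinol from its plasma carrier, rose by 0.48, 0.92 and 0.54 (adjusted p = 3.05e-06 in the combination group), from 9.35 ± 0.301 CPM with DMSO to 17.7 ± 1.09 with SGI-1027. The cellular carriers RBP7 and CRABP1 had 1 count each over all 12 libraries.

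Of the other retinoid enzymes, RDH10 and AOX1 were lower in all 3 treated groups. RDH10, the principal retinol dehydrogenase of embryonic tissue, had log2 fold changes of -0.29, -0.49 and -0.48 (adjusted p = 0.00269, 1.71e-05 and 1.81e-05), from 15.6 ± 0.713 CPM with DMSO to 11.2 ± 0.609 with the combination. AOX1, an aldehyde oxidase that can turn retinal into retinoic acid, changed by -0.67, -0.90 and -0.87 on the log2 scale (adjusted p = 2.04e-08 in the combination group), from 29.5 ± 1.39 to 16.2 ± 1.53 CPM. Of the 8 tested retinal reductases other than DHRS3, none was higher, and 3, 4 and 5 were lower in the everolimus, SGI-1027 and combination groups, where 29.2%, 30.6% and 33.4% of all tested genes were lower. Their median log2 fold change was -0.22, -0.28 and -0.37, against 0.0013, 0.017 and 0.0074 over all tested genes. AKR1B10, an aldo-keto reductase with high activity on retinal, had 9.91 ± 1.04 CPM with DMSO and 3.81 ± 0.873 with the combination, where it fell by 1.38 (standard error 0.15, adjusted p = 2.09e-07). AKR1B10 was also lower in the combination than with everolimus alone, by -1.08 (adjusted p = 1.41e-05), and than with SGI-1027 alone, by -0.95 (adjusted p = 0.000188). AKR1B10 has a close paralog, AKR1B15, and how the counting divided reads between them is not given in the sources used here. The abundant relative AKR1B1 stood at 1182 ± 79.9 FPKM with DMSO and fell by 0.48 in the combination group (adjusted p = 1.35e-06). BCO1, which cleaves beta-carotene into retinal, had 39, 36 and 39 counts with DMSO, 30, 33 and 25 with everolimus, 17, 16 and 19 with SGI-1027, and 19, 15 and 5 with the combination. In the combination group it fell by 1.54 (standard error 0.34, adjusted p = 0.000571). With SGI-1027 alone its log2 fold change was already -1.12, and the combination was not called against SGI-1027 alone. DGAT1, which can esterify retinol for storage, rose by 0.25 (adjusted p = 0.00105), and LRAT, the main enzyme of that step, had 2 counts over all libraries.

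On the receptor side, RXRB rose where RXRA did not. It had 43.9 ± 1.68 CPM with DMSO, 63.7 ± 2.10 with everolimus, 62.5 ± 3.36 with SGI-1027 and 66.5 ± 1.81 with both drugs, and log2 fold changes of 0.54, 0.51 and 0.60 (standard error 0.05 each, adjusted p = 7.41e-09 in the combination group). On the FPKM scale RXRB passed from 14.4 ± 0.426, beside 13.9 ± 0.524 for RXRA, to 22.2 ± 0.571, beside 11.3 ± 0.227. RXRG had 4 counts over all libraries. PPARA, a fatty acid receptor that also pairs with RXR, rose by 0.49, 0.34 and 0.44 (adjusted p = 5.87e-05 in the combination group). Among the 6 coregulators, the corepressor NCOR1 fell by 0.28 in the combination group (adjusted p = 3.74e-05) and NRIP1 rose by 0.34 (adjusted p = 6.81e-05).

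The listed target genes of retinoic acid include none of the retinoid genes described above. They were called in both directions in the everolimus and combination groups, and mostly as higher in the SGI-1027 group. Of 17 tested, everolimus left 6 higher and 5 lower, SGI-1027 left 9 higher and 1 lower, and the combination 7 higher and 5 lower. Among all tested genes 27.2%, 32.0% and 32.8% were higher and 29.2%, 30.6% and 33.4% lower in these groups. The median log2 fold change of the 17 genes was 0.15, 0.35 and 0.26. PLAAT4, a phospholipase and acyltransferase induced by retinoids and by interferon, had 178, 232 and 185 counts with DMSO and 627, 586 and 615 with the combination, and it rose by 0.83, 1.44 and 1.63 in the 3 treated groups (standard error 0.10 each, adjusted p = 8.22e-11 in the combination group). TNFAIP2, which answers to retinoic acid and to inflammatory cytokines, rose by 0.45, 0.85 and 0.60 (adjusted p = 1.59e-10 in the combination group), and was lower in the combination than with SGI-1027 alone by -0.25 (adjusted p = 0.00011). BHLHE41, HOXB4, TGM2, RARRES1 and IGFBP6 were the other target genes higher in the combination group, and MEIS1, MEIS2, RARRES2 and IGFBP3 were among the lower.

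**Figure D5:**
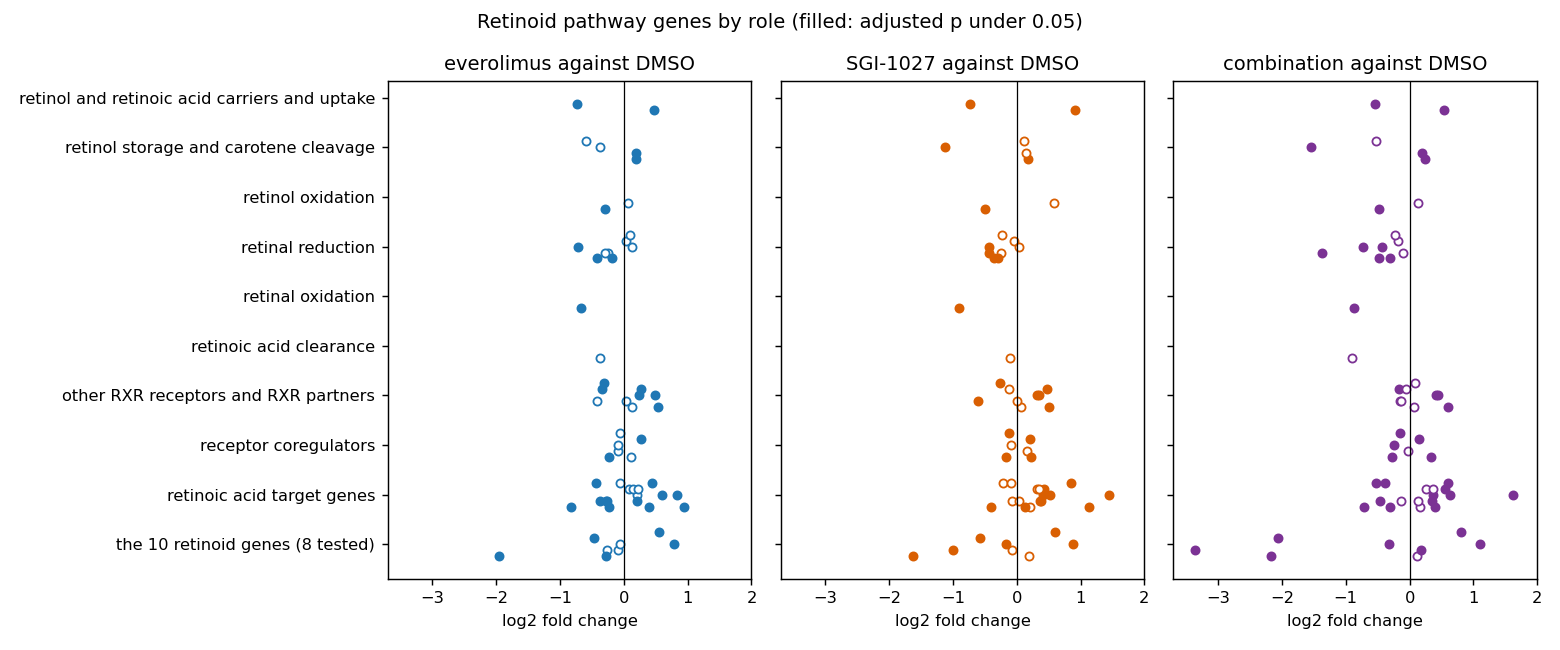
Log2 fold change against DMSO (horizontal axes) of the tested genes of each pathway list and of the 8 tested retinoid genes, one panel per treated group, with 1 point a gene, spread vertically for legibility, and filled points for an adjusted p under 0.05. Points lie on both sides of 0 in most lists, the tested retinal reductases have no filled point above 0, and the lowest points of the combination panel are DHRS9 (-3.35), CRABP2 (-2.18) and ALDH1A1 (-2.06).

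For the 3 retinoid genes with the largest change in the combination group, the genes with the most similar profile were sought among the 11464 genes whose mean count was 50 or more, by Pearson correlation of log2 CPM over the 12 libraries. DHRS9 was followed most closely by SMARCE1 (r = 0.97), CEP70 (0.96) and PLK2 (0.94), CRABP2 by TOR1B (0.99), MARK3 (0.99) and SUV39H2 (0.98), and ALDH1A1 by SELENOW (0.99), ENPEP (0.99) and ACTA2 (0.99). The correlation compares shape and takes no account of size: in the combination group SMARCE1 had a log2 fold change of -0.29 beside -3.35 for DHRS9, and ACTA2 one of -1.78 beside -2.06 for ALDH1A1. These values describe 12 libraries in 4 groups, which may share a preparation, and they carry no test. Among the 8 retinoid genes, DHRS9 and ALDH1A1 followed each other (r = 0.92), as did ALDH1A1 and RXRA (0.92) and DHRS3 and ALDH1A3 (0.95). CRABP2 ran against DHRS3 (-0.95) and ALDH1A3 (-0.92). The correlations of DHRS9 lean on 19, 6 and 1 counts in the combination libraries.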

How the data were processed

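RNA-seq of 12 libraries of 786-O cells (4 groups of 3) was used. The deposited tables hold raw whole-number counts for each gene symbol, as the authors made them, and FPKM values of the same genes. FPKM equalled the deposited count divided by the library total and by a gene length, 1050 bases for CRABP2 and 7339 for RXRA. The aligner, counter and annotation are not given in the sources used here, and the submitters' processing notes list GRCm38 and mm10, mouse builds, although the symbols are human. The methods name a stranded kit and the records another one. The strand setting of the counting is not stated, so reads from overlapping antisense genes cannot be told apart. Replicates were not pooled, and 0 columns of per-sample values were left unused.

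Tests on the counts used edgeR 4.0.16 under R 4.3.3 (filterByExpr, TMM factors, 1 quasi-likelihood fit over 12 libraries, prior count 0.125 for fold changes, Benjamini-Hochberg adjustment over 12841 genes, call at 0.05). The CPM values printed are scaled by TMM. Depth was 37046231 to 41516976 counts per library, so precision rested mainly on 3 libraries a group. For genes with few counts it also rested on counting error, as for DHRS9 in the combination libraries (19, 6 and 1) and genes under the filter. Exact intervals for the genes under the filter came from the binomial distribution of summed counts (95%). The study's cut-off for DEGs was an alternative call rule. Other alternatives were DESeq2 1.42.0, upper-quartile factors, no filter, at least 10 counts in every library, limma 3.58.1 on log2(FPKM + 1) and log2(FPKM + 0.1), a replicate block, only the groups of the contrast, and each library left out. Leaving out both DMSO replicate 1 and SGI-1027 replicate 3 was added after seeing the data. On simulated counts for combination against DMSO (12534 genes, 200 changed 2-fold), edgeR recovered 199 with 19 false calls. The changed genes had a mean of 50 or more counts, and a far smaller share of genes changed than was called in the data. The simulation therefore says nothing on genes with low counts or on scaling when many genes change.

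The members, the pathway lists and the marker lists were chosen with earlier results of these data known. All 10 members are named, and of each pathway list the 2 called genes with the smallest p in combination against DMSO, genes below the filter by their counts, and for 3 members the 3 most correlated genes. Other genes named as lists of calls were chosen after their values were seen. Promoter windows came from RefSeq (GRCh38.p14). No protein sequence was used here. Some genes of the pathway lists are not reported here by name.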

Additional observations from a re-analysis of the deposited data

Results flagged for a closer look

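For 6 of the 8 tested retinoid genes the effect of SGI-1027 differed between cells with and without everolimus, by the interaction term of the fit, which takes the everolimus dose to be the same alone and in the combination, whereas the records give 5 or 10 µM alone and 5 µM in the combination. The interaction, on the log2 scale, was -2.10 for DHRS9, -1.02 for ALDH1A1, -0.57 for DHRS3, -0.34 for ALDH1A3, 0.34 for RARG and 1.41 for CRABP2. Among all tested genes 45.6% had such a call. DHRS9 had 26 counts over the 3 combination libraries, and its interaction ranged from -3.38 to -1.58 when combination libraries were left out.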

How the results depend on the processing

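Of 202 counts of calls under the alternatives, 189 stayed within 1.5 times the value reported. The study's DEG cut-off moved the counts of retinoid genes called to 1, 1 and 4 for everolimus, SGI-1027 and the combination against DMSO, to 2 and 2 for the combination against everolimus and against SGI-1027, and to 3 for the interaction, and those of the pathway lists to 0, 3, 3, 2, 0 and 1 in the same order. Over left-out libraries the retinoid genes called for the combination against SGI-1027 ranged from 3 to 5, with 3 without combination replicate 2. Of 802 log2 fold changes under alternatives, 740 kept direction and side of the threshold, 41 lost the call (23 of them through the DEG cut-off), 18 gained it and 3 changed sign. The sign changed for RXRA with everolimus under upper-quartile factors (0.0063), and for RARA in the combination against SGI-1027 without SGI-1027 replicate 3 (0.039, over left-out libraries from -0.16 to 0.039) or without both libraries that stand apart (0.040). The causes were not tested. Without both libraries that stand apart, 8 of 8 retinoid genes were called for the combination against DMSO, RARA being added at 0.18. Replicate numbers did not pair the libraries: same-numbered deviations correlated between -0.138 and 0.0562, under the limit of 0.1. With the replicate block 5, 6 and 7 retinoid genes were called against DMSO, and of their calls in the 6 comparisons 2 changed, both for the combination against SGI-1027 (CRABP2 lost at -0.55, ALDH1A3 gained at 0.20). Dropping the filter on low counts gave 6 retinoid genes called for everolimus against DMSO, CYP26B1 being added at -2.20. Depth limits RARB and CYP26B1, with at most 9 counts a library, and DHRS9 in the combination libraries, with 19, 6 and 1 counts.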
